A study of Homo sapiens with 12 samples.

Results

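Long primed regions are the stretches of at least 300 kb in the list of nucleolus-associated domains (NADs, DNA that co-purifies with nucleoli) deposited for primed H9 cells. They were picked by length alone, as the rows of that list on chromosomes 1 to 22 that run 300 kb or more from start to end. The rule found 418 regions among the 28558 primed regions of these chromosomes, or 1.46% of them, and both lists over all chromosomes hold 91744 regions. H9 is an established line of human embryonic stem cells. The cells of one state were cultured in mTeSR medium and are called primed, and those of the other in RSeT medium and called naive, with no genetic change named for either. For each state 3 libraries of nucleolar DNA and 3 of whole-cell DNA were made, and each state's 6 libraries entered 1 list on hg38. A list gives chromosome, start and end, with no score, so the values below have no replicates, no error across cultures and no test, and the read depth behind them is unknown. RNA was not part of the files used here, so the state labels could not be set against marker genes.

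The nucleolus forms around the ribosomal RNA genes, which in human cells lie on the short arms of the acrocentric chromosomes 13, 14, 15, 21 and 22. Chromatin at its rim is as a rule late-replicating and poor in active genes, and it often holds sequence near centromeres, clustered gene families and silent repeats. Primed cells are held to resemble the epiblast after implantation, and naive cells the epiblast before it. Because length in the primed list chose the regions, their lengths and primed coverage are given as a description, while the naive list, the gene annotation and the promoter sequences played no part in the choice.

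The promoters that follow show the range of start sites which 1 long region can hold. Each of the 3 longest regions is shown by the promoter of the longest coding gene wholly inside it and by the one with fewest CpG dinucleotides among the genes named for that region (in the second region ZNF219 has as few as SALL2), the CpGs in capitals. They run from 250 bases before to 50 bases after a RefSeq start on GRCh38.p14, 5′ to 3′ on the gene's strand. NCAM2 (chr21:21146912-21147211, plus strand, a start within the annotated gene body), a neuronal adhesion molecule, has 16 CpGs, against 3 for KRTAP24-1 (chr21:30282901-30283200, minus strand), a hair keratin-associated protein. PRKD1 (chr14:29927798-29928097, minus strand), a protein kinase, has 46 CpGs, against 3 for SALL2 (chr14:21537072-21537371, minus strand), a zinc finger transcription factor. ZSCAN5A (chr19:56368229-56368528, minus strand), a zinc finger gene, has 28 CpGs, against 2 for ZSCAN4 (chr19:57668685-57668984, plus strand, again a start within the gene body), a gene of the 8-cell embryo. The starts of 5 of these 6 genes lay in naive regions, KRTAP24-1 being the exception, so CpG-rich and CpG-poor starts alike were found there.
NCAM2: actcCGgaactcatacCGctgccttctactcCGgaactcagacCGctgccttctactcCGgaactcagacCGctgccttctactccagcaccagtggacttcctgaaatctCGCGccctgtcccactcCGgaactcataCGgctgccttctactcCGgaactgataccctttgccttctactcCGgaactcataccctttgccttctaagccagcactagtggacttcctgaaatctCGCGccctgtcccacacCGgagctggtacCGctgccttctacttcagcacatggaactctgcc
KRTAP24-1: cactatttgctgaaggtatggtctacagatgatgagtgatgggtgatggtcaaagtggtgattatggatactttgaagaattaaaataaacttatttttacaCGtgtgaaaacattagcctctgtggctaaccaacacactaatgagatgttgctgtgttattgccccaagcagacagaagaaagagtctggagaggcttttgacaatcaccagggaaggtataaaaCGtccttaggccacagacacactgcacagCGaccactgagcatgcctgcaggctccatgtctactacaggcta
PRKD1: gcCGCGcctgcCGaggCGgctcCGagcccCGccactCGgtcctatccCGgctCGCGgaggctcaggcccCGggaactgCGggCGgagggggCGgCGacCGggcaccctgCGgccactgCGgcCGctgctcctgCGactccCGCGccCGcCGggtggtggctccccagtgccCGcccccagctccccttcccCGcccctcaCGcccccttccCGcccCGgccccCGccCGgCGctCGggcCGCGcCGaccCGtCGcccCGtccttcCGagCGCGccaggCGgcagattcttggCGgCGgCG
SALL2: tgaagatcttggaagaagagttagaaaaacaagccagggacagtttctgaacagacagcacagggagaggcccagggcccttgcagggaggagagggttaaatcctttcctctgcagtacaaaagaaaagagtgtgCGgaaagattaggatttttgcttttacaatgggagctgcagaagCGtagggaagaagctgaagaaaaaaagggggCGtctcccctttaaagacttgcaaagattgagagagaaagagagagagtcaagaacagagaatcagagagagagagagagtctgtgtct
ZSCAN5A: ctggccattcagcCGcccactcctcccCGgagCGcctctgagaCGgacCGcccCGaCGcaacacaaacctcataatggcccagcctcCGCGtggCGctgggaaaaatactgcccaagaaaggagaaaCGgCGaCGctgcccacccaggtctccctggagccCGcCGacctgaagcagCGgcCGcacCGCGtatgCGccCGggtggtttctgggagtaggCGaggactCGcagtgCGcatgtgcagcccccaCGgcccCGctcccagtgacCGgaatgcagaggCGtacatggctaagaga
ZSCAN4: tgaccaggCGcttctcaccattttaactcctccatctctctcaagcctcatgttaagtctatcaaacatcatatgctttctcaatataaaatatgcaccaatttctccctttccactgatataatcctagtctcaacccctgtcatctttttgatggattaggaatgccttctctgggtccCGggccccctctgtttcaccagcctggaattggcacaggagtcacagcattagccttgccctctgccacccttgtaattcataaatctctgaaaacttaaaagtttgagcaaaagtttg

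The 418 regions covered 432.3 Mb, which is 35.9% of all primed sequence on the autosomes and 15.7% of the 2757 Mb analysed. Their median length was 510 kb, with quartiles of 390 and 950 kb and a longest region of 21.42 Mb. Most of the sequence lay in few of them: 100 regions of 1 Mb or more held 273.4 Mb, 44 of 2 Mb or more held 199.8 Mb, and 13 of 5 Mb or more held 108.8 Mb. The 10 longest made up 21.5% of the sequence. At the limit itself, 10 regions were exactly 300 kb long and 16 were exactly 290 kb long, and their naive shares were 53.3% and 46.6%.

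Long primed regions were gathered around 1 inner stretch on the large chromosomes and spread over several of the small ones. They took up 84.9% of chromosome 19, 83.4% of chromosome 21, 68.3% of chromosome 20, 48.8% of chromosome 22 and 40.2% of chromosome 14, against 2.70% of chromosome 6 and 2.86% of chromosome 3. As a stand-in for the centromeric part, since the genome sequence was not used here, the longest stretch with no annotated gene was found on each chromosome. On chromosomes 13, 14, 15, 21 and 22 it starts at the tip of the short arm. Within 10 Mb of that stretch, long regions covered 51.6% of the sequence, against 8.89% of the rest, with more near the stretch on 20 of 22 chromosomes. Chromosomes 20 and 21 were the exceptions. On chromosome 21 the stretch was chr21:1-5010000, and whether it marks the centromeric part there was not checked. On chromosomes 1 to 12 the contrast was 41.6% near the stretch against 1.88% elsewhere, so that 77.4% of their long primed sequence lay in 13.4% of their length. Chromosome 3 held all of its long primed sequence there, and chromosome 2 held 94.5%.

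On chromosomes 13 to 22 the long regions reached further. They covered 68.2% of the sequence near the gene-free stretch and 31.3% of the rest. On chromosome 21 they covered 40.7% near it and 93.9% of the rest. Chromosome tips showed no excess shared by most chromosomes. Averaged over chromosomes, the analysed part of the outer 2 Mb was 23.6% long primed sequence, against 24.5% of the rest, with more at the tips on 9 of 22 chromosomes. Pooled over all sequence, the shares were 20.2% of the outer 2 Mb and 15.5% of the rest, so the direction depended on the weighting. On chromosomes 13, 14, 15, 21 and 22 the tips held only 2.0 Mb of analysed sequence, against 4.0 Mb on the others. The tips of chromosome 14 (91.5%) and chromosome 22 (77.0%) were the fullest next to their own rest (39.0% and 47.2%), and those of chromosomes 1, 2 and 3, among others, held none. With the outer 25% of a chromosome's length taken at each end, 155 of 418 midpoints (37.1%) lay in these outer parts, where long regions covered 11.2% of the sequence, against 20.1% of the inner part.

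**Figure D1:**
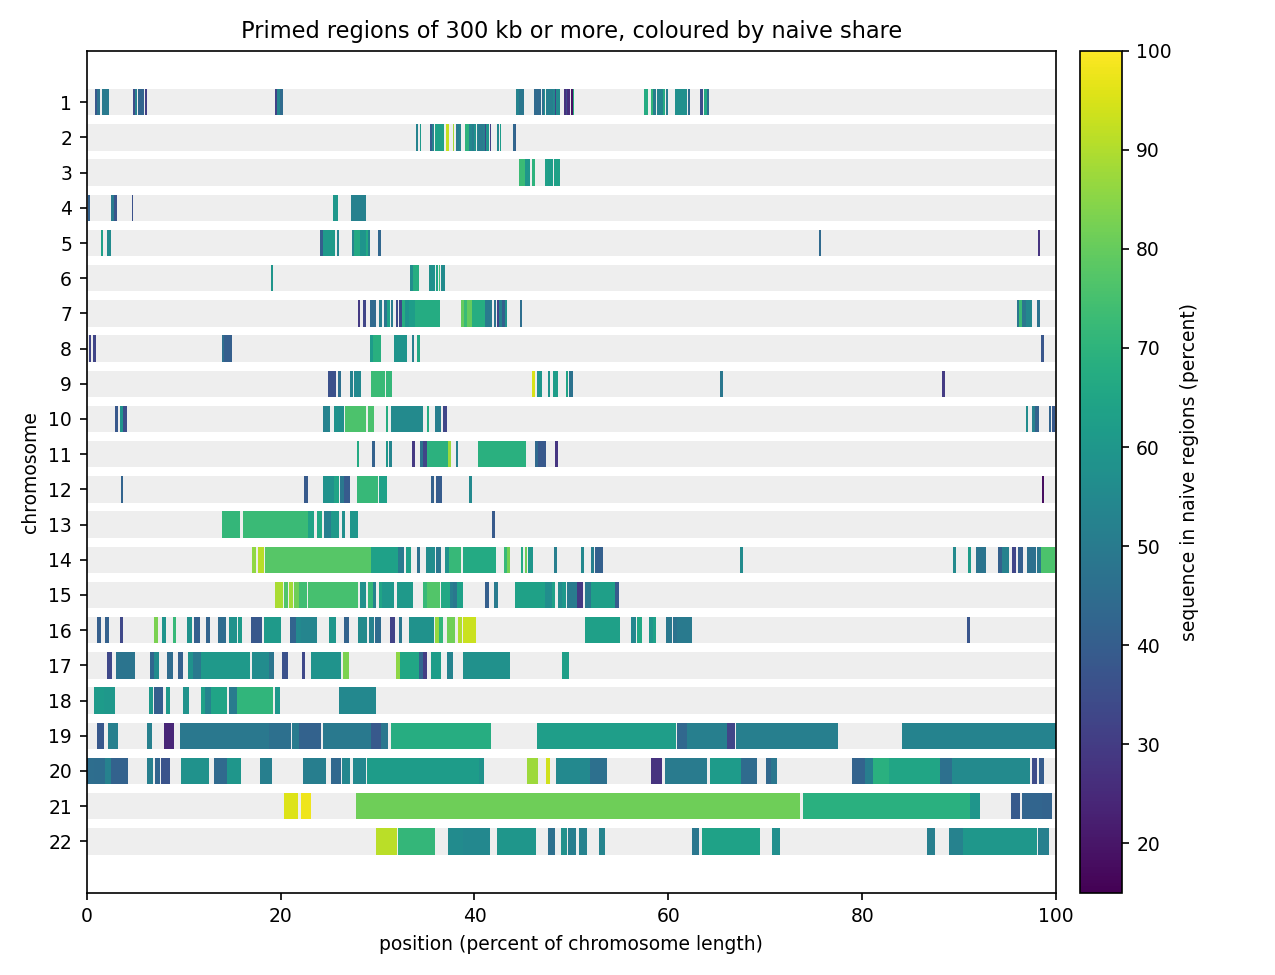
Each of the 418 long primed regions is drawn on its chromosome (rows 1 to 22) against position in percent of chromosome length, and coloured by the percent of its sequence in naive regions. Chromosomes 1 to 12 carry a main group around the longest gene-free stretch and scattered regions elsewhere, whereas chromosomes 19 and 21 are 84.9% and 83.4% filled, and the longest region, on chromosome 21, is 81.1% naive.

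The next question was how much of this sequence the naive list also held. Naive regions covered 59.4% of long primed sequence and 35.8% of the rest of the analysed autosomes. The shorter the primed region, the lower the naive share: 47.1% in primed regions of 100 to 290 kb, 40.5% in those of 20 to 90 kb, 35.7% in those of 10 kb and 33.0% in sequence in no primed region. The share inside was above that outside on 22 of 22 chromosomes, by between 10.4 percentage points on chromosome 20 and 41.6 on chromosome 21 (median 18.7). Over chromosomes it averaged 59.1% ± 6.24 inside and 38.1% ± 4.997 outside (SD over 22 chromosomes of the same 2 lists, which are not replicates).

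**Figure D2:**
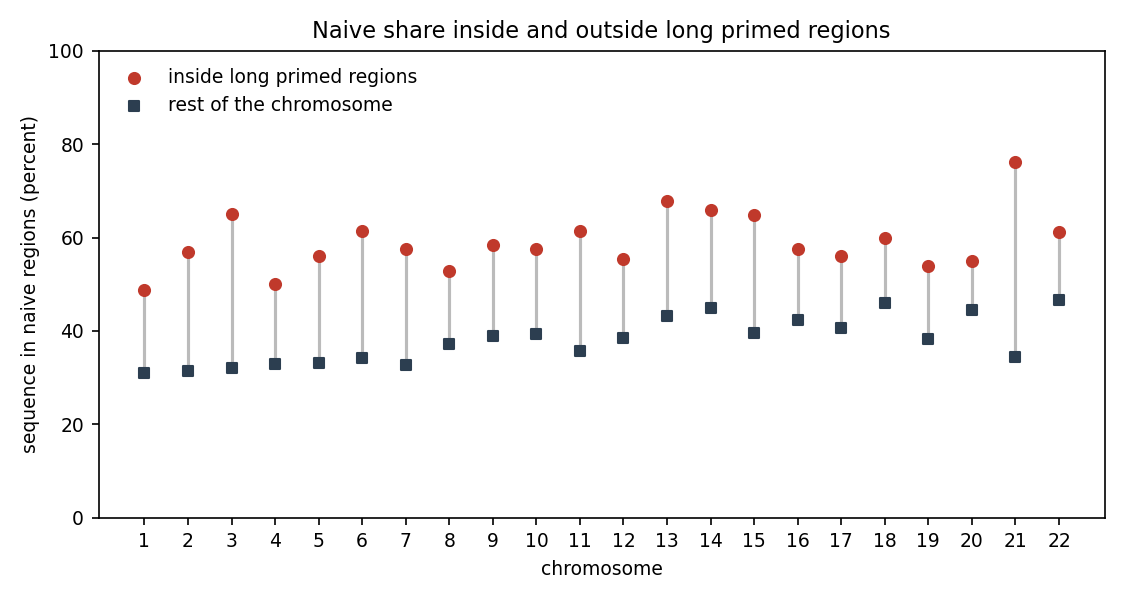
The percent of sequence in naive regions is plotted for each of the 22 autosomes inside long primed regions (red circles) and in the rest of the chromosome (dark squares), joined by a line. The circle lies above the square on every autosome, with the widest gap on chromosome 21 (76.1% inside, 34.5% outside) and the narrowest on chromosome 20 (54.9% inside, 44.5% outside).

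The contrast was present near the longest gene-free stretches and away from them. Within 10 Mb of the longest gene-free stretch, 61.9% of long primed sequence was naive, against 45.6% of other sequence at the same distance. Farther away the values were 56.7% of long primed sequence and 34.8% of other sequence. On chromosomes 1 to 12, long regions near the stretch were 59.0% naive and those farther off 45.0%. Closeness to the stretch moved with the naive share inside long regions and outside them, and its part in the share of single regions was not tested.

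Every long region held some naive sequence, but never all of its length. The share per region averaged 54.5% ± 14.2 (SD over 418 regions), with a lowest value of 18.2%, a median of 53.4% and a highest of 98.0%. Of the 418 regions, 381 exceeded the 35.8% of the rest of the autosomes, 24 were over 80% naive and 58 were under 40%. Longer regions were more naive: 51.7% of sequence under 500 kb, 55.3% from 500 kb to under 1 Mb, 56.9% at 1 to 2 Mb, 61.5% at 2 to 5 Mb and 67.8% at 5 Mb or more. Over single regions this relation was loose (Spearman's rho 0.22 across 418 regions, which share their 2 lists), and the regions under 500 kb ranged from 18.2% to 94.7%. Among the 13 regions of 5 Mb or more, those on the acrocentric chromosomes 13, 14, 15 and 21 were 68.9% to 81.1% naive. The others, on chromosomes 11, 19 and 20, were 49.2% to 69.1% naive. Length and chromosome were thus mixed in the highest class, and their parts were not tested.

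Naive NADs inside long primed regions were a broken series of stretches rather than 1 block. Their mean length was 27.4 kb, against 17.0 kb outside, and 43.0% of the stretches inside were a single 10 kb bin, against 61.5% outside. The longest naive stretch in any long region was 520 kb, and the longest part without naive sequence was 170 kb, with a median over regions of 50 kb. The longest naive NADs were mostly found here: 292 of the 386 naive regions of 100 kb or more (75.6%) lay wholly inside a long primed region, against 15.8% of naive regions of any length.

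**Figure D3:**
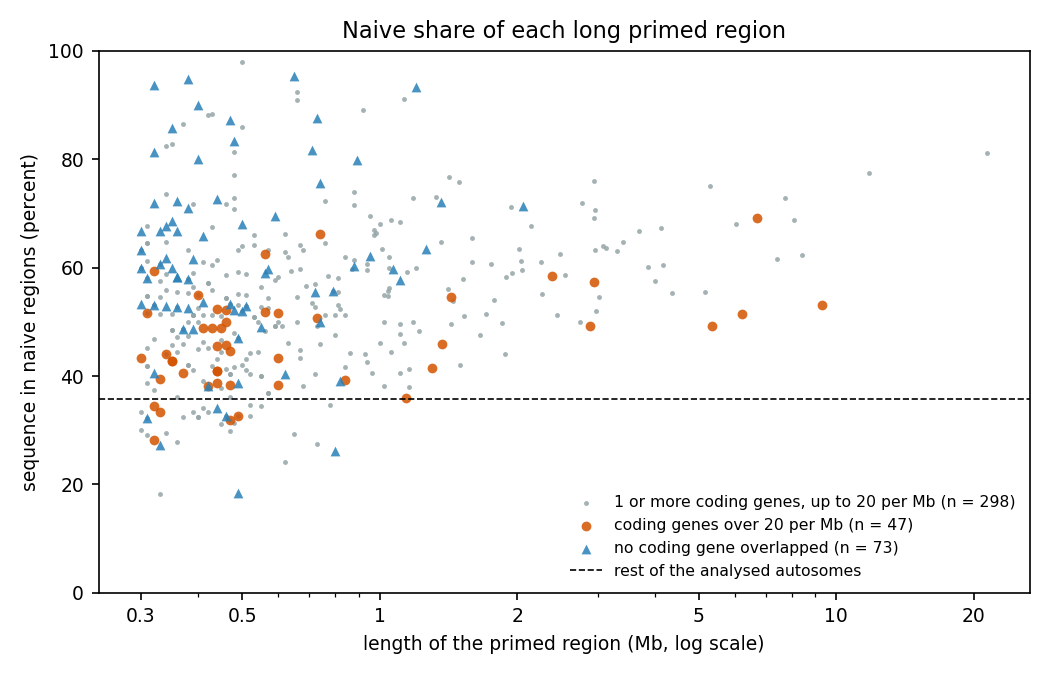
Each point is 1 long primed region, with its length in Mb on a log axis and the percent of its sequence in naive regions, marked by how many coding genes it holds, and the dashed line gives the 35.8% of the rest of the autosomes. The 13 regions of 5 Mb or more lie between 49.2% and 81.1%, while regions under 500 kb range from 18.2% to 94.7%, and those with no coding gene tend to lie higher than those with more than 20 per Mb.

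Gene content went with the naive share in long regions and hardly at all elsewhere. On the 21 chromosomes with promoter data, 63.1% of the 10 kb bins of long regions that touch no coding gene were naive, against 55.1% of those that touch one. Outside long regions the corresponding shares were 35.8% and 35.6%. Gene-free bins were the more naive ones on 16 of 21 chromosomes inside long regions and on 13 of 21 outside. The 73 regions that overlap no coding gene (39.6 Mb) were 62.2% naive, and the 47 regions with more than 20 coding genes per Mb (57.4 Mb) were 51.7% naive. Across the 418 regions, naive share and coding density had a Spearman's rho of -0.39, again with the 2 lists shared by all points.

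The most naive region was chr21:10320001-10820000 at 98.0%, which holds TPTE, a testis-expressed phosphatase-related gene, followed by chr21:9520001-10170000 at 95.4%, chr9:63540001-63920000 at 94.7%, chr20:30450001-30770000 at 93.8% and chr16:35070001-36270000 at 93.3%. TPTE, at 84.1 kb, was wholly naive. The least naive were chr12:131300001-131630000 at 18.2%, chr1:124340001-124830000 at 18.4%, chr19:4690001-5310000 at 24.2%, chr1:123430001-124230000 at 26.3% and chr1:122640001-122970000 at 27.3%. The chromosome 19 region holds KDM4B, a histone demethylase (18.2% of its body naive), UHRF1, which directs maintenance DNA methylation (33.9%), and part of PTPRS, a receptor phosphatase (7.39%). The 3 regions of chromosome 1 lie inside that chromosome's longest gene-free stretch (chr1:121580001-143290000), and they overlap no coding gene, as is also true of 4 of the 5 most naive regions, so that regions with no coding gene were found at both ends.

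The edges of long regions were for the most part narrow breaks in wider primed sequence. Of 836 edges, 3 lay at a chromosome end and 11 at a stretch of 500 kb or more with no region and no gene, and the other 822 were used. A single 10 kb bin separated the region from the next primed region at 689 edges (83.8%), and a gap of 50 kb or more followed at 40 edges (4.87%). The neighbour was itself a long region at 276 edges (33.6%), and it was at least 100 kb long at 66.5% of the 822 edges. At 100 to 300 kb beyond the edge, 92.2% of sequence was primed again. Joining primed regions no more than 10 kb apart put the 418 regions into 192 blocks of 568.8 Mb, the largest being chr14:19610001-46960000 (27.35 Mb), and joining over 50 kb put them into 79 blocks of 894.5 Mb. A region's length is therefore set in part by single bins.

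Naive coverage dipped at these edges and came back on the other side. It was 53.6% in the inner 150 kb, 52.4% in the inner 50 kb, 38.7% in the first 10 kb outside, 45.7% from 10 to 50 kb outside and 50.8% from 100 to 300 kb outside. At edges of primed regions of 100 to 290 kb it was 45.8% in the inner 50 kb, 39.7% in the first 10 kb outside and 44.4% at 100 to 300 kb, a shallower dip. On the 21 chromosomes with promoter data, 553 single-bin breaks beside long regions were 43.8% naive, against 50.8% for the bins just inside them. Of the breaks 4.88% held a coding gene's start, against 5.20% of the bins just inside, 6.70% of all bins inside long regions and 4.89% of bins outside.

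**Figure D4:**
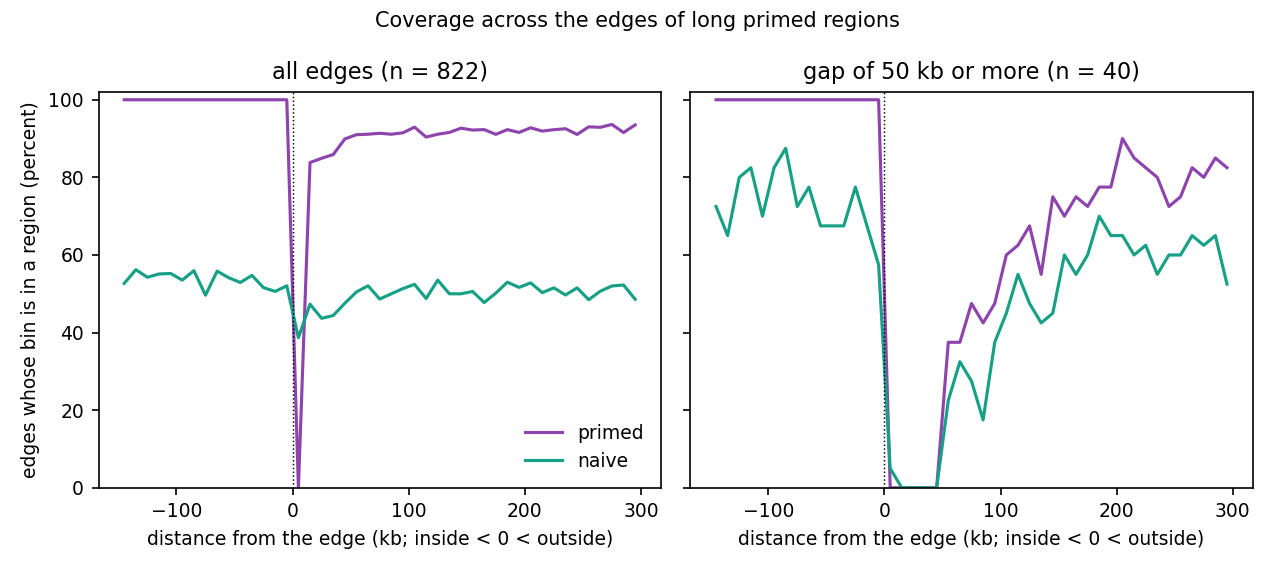
The percent of edges whose 10 kb bin lies in a primed region (purple) or a naive region (green) is plotted against distance from the edge in kb, negative inside the long region, for all 822 edges used (left) and for the 40 edges with a gap of 50 kb or more (right). On the left naive coverage dips to 38.7% in the first bin outside and returns to 50.8% at 100 to 300 kb, and on the right it is 1.0% over the first 50 kb outside.

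The few wide gaps beside long regions were mostly empty in both lists. There were 35 gaps of 50 kb or more (3.91 Mb), of which 32 held no naive sequence and 31 held no annotated gene. Of the 5836 other gaps of that size between primed regions, 459 (7.86%) held no naive sequence, and 32.0% of their length was naive. The 1 wide gap with coding genes was chr21:34380001-34440000, which holds SMIM11, C21orf140 and SMIM34 and separates the longest region from a neighbour; it was singled out after its content was seen. The sequence of these gaps was not used here, so a gap without reads cannot be told apart from sequence that was not called.

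Edges fell inside gene bodies about as often as arbitrary positions. Of the 822 edges, 450 (54.7%) lay in a gene of any kind and 340 (41.4%) in a coding gene. The shares were 54.0% and 38.8% for 10 kb grid points inside long regions and 58.2% and 43.9% for grid points of all analysed autosomes. Among the 10 longest regions an edge cut through SMIM11, a small membrane protein gene, HEATR5A, SLC6A16, a transporter-family gene, KCNE1, a potassium channel subunit, SLC37A1, a sugar phosphate transporter, DTD1, which clears mischarged tRNA, PGA3, a pepsinogen, ERCC1, a DNA repair endonuclease subunit, and SSBP4. The share of the gene inside the region ran from 18.6% for KCNE1 to 93.3% for DTD1.

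Of 18969 autosomal coding genes, 3834 lay wholly inside a long primed region, a background of 20.2%, and with any overlap the background was 21.7%. By midpoint, long regions held 9.22 coding genes per Mb, against 6.45 in the rest. Primed regions of 100 to 290 kb and of 20 to 90 kb were denser still, with 10.9 and 9.71 per Mb. Those of 10 kb had 6.55, and sequence in no primed region had 4.96. Chromosome 19 carried much of the difference between long regions and the rest: without it the densities were 7.34 and 6.36. Long regions were denser than the rest on 10 chromosomes and sparser on 12. The median coding gene was 16.3 kb long in long regions and 15.4 kb in primed regions of 100 to 290 kb. It was 20.4 kb in those of 20 to 90 kb, 32.1 kb in those of 10 kb and 37.9 kb in sequence in no primed region. Density per region ran from 0 to 76.8 coding genes per Mb, with a median of 4.96, below the 6.45 of the rest taken as a whole. No coding gene had its midpoint in 88 of the 418 regions. The densest, chr17:40840001-41400000, holds 9 keratins and 34 keratin-associated proteins of the listed ones, among them KRT23, KRT20 and KRT40, and 62.5% of it was naive.

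Clustered gene families lay in several long regions, and many of these families sit on chromosomes 19 and 21, where 1152 of 1410 (81.7%) and 187 of 238 (78.6%) of all coding genes lay wholly inside. Members there are to be read against those shares. All 10 pregnancy-specific glycoprotein genes on the list, placental secreted proteins such as PSG3, lay wholly inside chr19:39230001-45430000, as did 6 cytochromes P450 such as CYP2A6, a liver enzyme, out of 17 of 56 such genes (30.4%) in long regions anywhere. Of the 263 zinc finger genes of chromosome 19, 256 lay wholly inside (97.3%), 111 of them in chr19:49320001-58617616. Elsewhere, 76 of 291 zinc finger genes (26.1%) did, which is closer to the background, with 13 in chr16:29990001-32370000 and 11 in chr7:63400001-65540000. Of the leukocyte receptor genes (LILR, KIR, SIGLEC and LAIR), which tune immune cell activation, 30 of 32 (93.8%) lay in chr19:49320001-58617616.

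Keratin-associated proteins, the matrix of hair, lay wholly inside in 83 of 94 cases, in 3 regions, with 34 on chromosome 17 and 33 and 16 in 2 regions of chromosome 21. The median member was wholly naive in chr17:40840001-41400000 and in chr21:12960001-34380000, and not naive at all in chr21:44530001-44970000, where KRTAP10-1 was nevertheless 100% naive. The regions themselves were 62.5%, 81.1% and 38.6% naive. These genes are short against the 10 kb bins (KRTAP3-3 is 0.735 kb long) and neighbours can share a bin. A median of 100% or 0% therefore says little more than on which side most members fell. Olfactory receptors, the odorant receptors of the nose, lay wholly inside in 158 of 388 cases (40.7%), 69 of them in chr11:54520001-61210000, 23 in chr14:19610001-31370000 and the others spread over 15 regions. Their median body was 100% naive, with the same limit of 10 kb bins (OR4C46 is 0.93 kb long). Long regions thus held many olfactory receptors, while 229 of the 388 lay outside them. Whether whole clusters were enclosed was not measured.

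Among the other lists, some families that are also clustered lay under the background of 20.2%. None of the 70 replication histones, 39 HOX genes, 53 clustered protocadherins and 17 type I interferons overlapped a long primed region. The same was true of the 13 listed genes of PRC2, the Polycomb complex named in the title of the study, and its partners. Among genes needed in every cell, 19 of 76 ribosomal protein genes (25%) and 17 of 77 mitochondrial ribosomal genes (22.1%) were wholly inside, close to the background. Of 47 proteasome genes 17 were (36.2%), which is above the background. Of these, 4 lay in chr14:19610001-31370000, on a chromosome where 239 of 603 coding genes lay wholly inside. Of 28 genes for nucleolar proteins and RNA polymerase I, 5 were (17.9%): POLR1A, POLR1D and POLR1G, subunits of the polymerase, and FBL and NOP56, which modify ribosomal RNA.

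**Figure D5:**
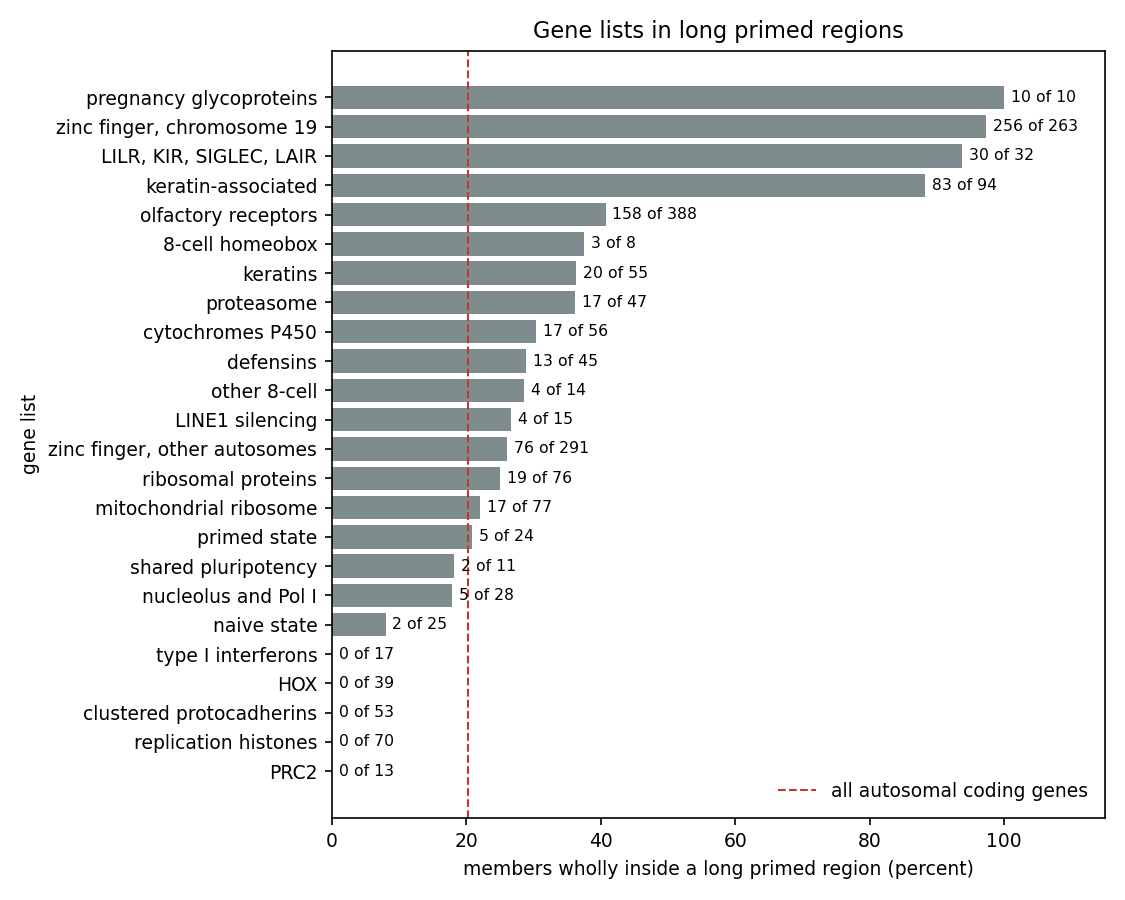
Bars give the percent of each of the 24 gene lists that lies wholly inside a long primed region, with the count beside each bar, and the dashed line marks the 20.2% of all autosomal coding genes (81.7% on chromosome 19 and 78.6% on chromosome 21). Pregnancy glycoproteins, chromosome 19 zinc fingers, leukocyte receptors and keratin-associated proteins stand at 88.3% or more, and 5 lists stand at 0.

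The genes of pluripotency and early embryos showed no common placement. Of the 11 shared pluripotency genes 2 lay wholly inside, UTF1 in chr10:133200001-133670000 and SALL4 in chr20:51630001-52160000, with 100% and 62.0% of their bodies naive, while SOX2, POU5F1 and NANOG overlapped no long primed region. Of 25 naive-state genes 2 did, NLRP7 (53.2% naive), which acts in the oocyte, and TFAP2C (6.97% naive), a transcription factor. Of 24 primed-state genes 5 did, namely the transcription factors SALL2, OTX2 and SALL1, each 100% naive, DNMT3B, a DNA methyltransferase (37.5% naive), and CYTL1, a secreted protein (0% naive), and COL2A1 overlapped with 48.8% of its body. Of 8 homeobox genes of the 8-cell embryo 3 did, LEUTX, DPRX and DUXA, all on chromosome 19, with 100%, 47.4% and 44.4% naive. ZSCAN4 (69.2% naive), ZSCAN5B (3.84%), ZNF296 and MBD3L2 (both 100%), also on chromosome 19, were the 4 of 14 other 8-cell genes inside. On chromosome 19 such a place is the common case for coding genes, as given above. On chromosome 20, which holds SALL4, TFAP2C and DNMT3B, 318 of 537 coding genes lay wholly inside. On chromosome 14, which holds SALL2 and OTX2, 239 of 603 did. The list of proteins that silence LINE1 repeats had 4 of 15 inside (26.7%, against 20.2% of all coding genes). They were MPHOSPH8 on chromosome 13 and TRIM28, DNMT1 and UHRF1 on chromosome 19.

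Several tandem arrays of noncoding genes and of antigen receptor segments were also enclosed. Of 56076 genes of any kind, 20.7% lay wholly inside a long primed region. All 48 SNORD115 and 30 SNORD116 genes, the imprinted small nucleolar RNA arrays of the Prader-Willi region, lay in chr15:23280001-28560000, which was 75% naive. All 9 SNORD113 and 31 SNORD114 genes, of the imprinted array on chromosome 14, lay in chr14:100890001-101710000 with 44 miRNA genes, and that region was 52.4% naive. Of 235 variable segments of antigen receptors, 175 were wholly inside. The immunoglobulin arrays had 43 of 50 heavy, 43 of 44 kappa and 38 of 38 lambda segments inside, and the T cell receptor alpha array 46 of 46, whereas the beta array had 0 of 44 and the gamma array 0 of 6. Of 425 tRNA genes 106 (24.9%) were inside, and of 14160 pseudogenes 3049 (21.5%).

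The run of 50 miRNA genes at chr19:53666679-53788773, known for expression in placenta and pluripotent cells, lay wholly inside chr19:49320001-58617616. Of the 50, 7 had their midpoint in a naive region, and 53.0% of that long region was naive. Coverage was counted in 10 kb bins that neighbouring genes share, so the 50 are not separate observations. The longest part of that region without naive sequence was 100 kb, and whether the run differs from its surroundings was not tested. Mature sequences were found for 49 of the 50 in RefSeq (GRCh38.p14), and they fall into families by seed, the bases 2 to 8 that pair with target RNAs. The most common seed, UCUAGAG, belongs to 11 genes of the run and, among the autosomal miRNAs of that table, to no others. The next, AAGUGCU, belongs to 7 genes of the run and to 12 on all autosomes, of which these 7 lay in long primed regions. Examples of both families, ordered by position within each, are shown to let the seeds, in capitals, be compared. They are encoded on the plus strand at chr19:53686484-53686505, chr19:53700030-53700051, chr19:53706266-53706287, chr19:53675764-53675784 and chr19:53690933-53690954, in the order printed, and none of the 5 lay in a naive region.
hsa-miR-519c-5p: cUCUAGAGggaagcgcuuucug
hsa-miR-518f-5p: cUCUAGAGggaagcacuuucuc
hsa-miR-526a-5p: cUCUAGAGggaagcacuuucug
hsa-miR-520e-3p: aAAGUGCUuccuuuuugaggg
hsa-miR-520a-3p: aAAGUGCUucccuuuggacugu

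Promoters in long regions included more CpG-poor ones. Among 15100 coding genes with a promoter in the RefSeq table, 1003 of 3192 starts in long regions (31.4%) had a CpG observed over expected ratio under 0.4, against 2811 of 11908 elsewhere (23.6%). The median ratio was 0.72 in long regions and 0.78 elsewhere, and it was lower inside on 16 of 21 chromosomes. Without chromosome 19 the shares were 34.5% and 23.6%. Much of the difference came with the 3 families of olfactory receptors, keratin-associated proteins and leukocyte receptors, whose starts in long regions were CpG-poor in 91.9% of 236 cases, and without them the shares were 26.6% and 22.5%. Median GC content was 61.7% in long regions and 63.0% elsewhere. Sequence in no primed region lay between or below, with a median ratio of 0.74, 27.5% CpG-poor starts and a median GC content of 60.7%. The start lay in a naive region for 55.9% of genes in long regions and for 37.3% of genes elsewhere. In long regions this share was 57.9% for CpG-poor starts and 54.9% for the other starts.

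The naive shares of the 10 longest regions ranged from 51.5% to 81.1%, all above the 35.8% of the rest of the autosomes. The longest, chr21:12960001-34380000, was 81.1% naive and held 98 coding genes at least in part, with NCAM2 (544.9 kb, 86.5% naive) the longest wholly inside. The next, chr14:19610001-31370000, was 77.5% naive, with PRKD1 (77.2% naive). Both follow the short arm of an acrocentric chromosome, as does chr13:18400001-26110000 (72.8% naive), with ATP8A2, a phospholipid flippase gene (56.6% naive). The second long region of chromosome 21 among the 10, chr21:34500001-42560000, was 68.9% naive and held DSCAM, a neuronal adhesion gene of 836.2 kb (74.9% naive).

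Chromosome 19 held 4 of the 10, and these differed among themselves. The 2 regions on either side of its gene-free stretch, chr19:18410001-24450000 and chr19:27240001-35660000, were 68.0% and 62.4% naive, and their longest genes are GATAD2A, a subunit of the NuRD repressor (43.1% naive), and ZNF536, a zinc finger gene (73.4% naive). The other 2, chr19:39230001-45430000 and chr19:49320001-58617616, were 51.5% and 53.0% naive, with POU2F2, a lymphoid transcription factor (35.8% naive), and ZSCAN5A (79.6% naive). They were also the more crowded, with 28.9 and 35.4 coding genes per Mb, against 13.2 and 8.43 for the 2 around the gene-free stretch. The remaining 2 of the 10 were chr11:54520001-61210000, the olfactory receptor region, at 69.1% naive and 21.5 coding genes per Mb, and chr20:18600001-26020000 at 61.6% naive and 6.06 per Mb, whose longest gene is SLC24A3, a sodium and calcium exchanger (60.2% naive). A crowded region could thus be as naive as a sparse one.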

How the data were processed

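Nucleolar and whole-cell DNA of H9 cells was sequenced in 12 libraries, 3 per group of 4. The authors deposited 1 region list per state, which holds positions (hg38) and no counts, scores or p-values. Per the submitters' processing notes BWA, SAMtools 1.10 and SICER were used. The sources used here do not give their settings or how replicates were combined. The depth per sample is unknown, so no interval or floor is given. All limits except those at chromosome ends are multiples of 10 kb, and coverage was counted in 10 kb bins (Python 3.11.15, numpy 2.4.6, pandas 2.3.3, scipy 1.17.1, matplotlib 3.10.9). The 14 stretches of 500 kb or more with no region and no gene (117.4 Mb) were left out. Genes and promoters came from RefSeq tables on GRCh38.p14. Genes with scaffold coordinates, 676 in all and 153 of them coding, were left out. Promoters of chromosome 8 were not used, and 80.8% of coding genes in long regions and 83.2% of those elsewhere on the other chromosomes had one. The gene's outermost start in the table was taken.

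The regions, the gene lists and the limit for empty stretches were chosen with earlier results of these data known. With 1 list per state no test was run. Measures were tested on simulated data with known answers. Named genes are those at the edges of the 10 longest regions and the longest gene within each, list members in long regions by region length, and the longest genes of regions with extreme naive share or gene density. The search around the longest gene-free stretch and the miRNA run were added after seeing the data.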

Additional observations from a re-analysis of the deposited data

Results flagged for a closer look

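Chromosome X is outside the 22 autosomes to which the regions belong, and its primed list holds 69 regions of 300 kb or more as well. They cover 73.7 Mb, or 47.2% of the analysed sequence of the chromosome, with a median length of 570.0 kb. Of their sequence 60.7% was naive, against 45.6% of the rest of chromosome X. This signal was drawn out because no other value in the report uses that chromosome, apart from the opening count of 91744 regions.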

How the results depend on the processing

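In 43 alternatives to 10 results, 17 values stayed close to the reported one, which for shares means inside its 95% binomial interval, a narrow range over so many bins, and for counts and densities within 1.5 times. The naive share inside long regions (59.4%) was above that outside in every alternative with a value for both: it was 58.2% at a limit of 200 kb, 61.0% at 500 kb and 62.8% at 1 Mb, 52.9% and 46.2% with primed regions joined over 10 and 50 kb, 55.7% without the acrocentric chromosomes, 60.1% without chromosome 19, 56.7% without the 10 longest regions, 50.3% with naive regions of at least 20 kb, and 60.1% without the outer 50 kb. It was 55.6% without the 53 regions within 2 Mb of an empty stretch or beside a wide gap, an alternative chosen after seeing the data. Each region weighing the same gave a mean of 54.5% and a median of 53.4%. Naive coverage in the first 50 kb outside (44.3%) was 1.0% at gaps of 50 kb or more and 16.1% outside the blocks joined over 50 kb (added after seeing the data), since the narrow breaks are then gone. The share of coding genes (20.2%) was 21.01% by midpoint, 21.7% with any overlap, and 23.1%, 16.5% and 13.7% at limits of 200 kb, 500 kb and 1 Mb, as fewer regions are counted. Edges in genes (54.7%) were 41.4% for coding genes alone. CpG-poor promoters (31.4%) were 34.5% without chromosome 19. Long primed sequence within 10 Mb of the gene-free stretch (52.3%) was 33.7% within 5 Mb and 73.1% within 20 Mb, of 8.90% and 29.9% of all sequence, and 62.9% without the acrocentric chromosomes and 53.5% without chromosome 19. Coding density inside (7.34 to 10.5 per Mb), position, the lists (741 members inside, 749 with any overlap) and the gene-free contrast stayed close. For density this judged the inside value alone, not its contrast with the rest. Without chromosome 19 density was 7.34 inside and 6.36 outside, next to 9.22 and 6.45 as reported. No paired analysis was possible because each list pools the replicates, which also kept single replicates from being left out. Unknown depth limits every statement about breaks and lengths.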
